A study of Mus musculus with 2 samples.

Results

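CD8 T cells of the mouse kidney cortex were taken as the droplet barcodes that carried RNA of both the T cell receptor complex and the CD8 co-receptor. A barcode was a member where it held at least 1 UMI (a counted mRNA molecule) of Cd3d, Cd3e, Cd3g and Trac summed, at least 1 UMI of Cd8a and Cd8b1 summed, at most 1 UMI of C1qa, C1qb and C1qc summed, and no UMI of Cd79a. In all, 82 of 7308 kept barcodes met this rule, of which 77 came from the I-PpoI library and 5 from the wild-type library. The I-PpoI library was made from kidney cortex of mice, 12 weeks old, that express I-PpoI in podocytes, the filtering epithelial cells of the glomerulus. I-PpoI is a homing endonuclease that cuts genomic DNA at its recognition sites. The wild-type library was made from kidney cortex of wild-type mice of the same age, and both suspensions were prepared by enzymatic digestion and measured with a 3' droplet kit. There was 1 library per group, so no difference below has a replicate check and no p-value is given. The driver of I-PpoI, the mouse strain and the number of mice behind each library are not given in the sources used here.

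CD8 T cells recognise peptides on MHC class I molecules through a T cell receptor that works together with the CD8 co-receptor, a dimer of the Cd8a and Cd8b1 products. On recognition they release perforin and granzymes, which kill the target cell, and cytokines and chemokines such as interferon-gamma, CCL5 and XCL1. Naive CD8 T cells circulate through lymphoid organs and carry receptors for that route (Ccr7, S1pr1), whereas effector and memory cells enter tissues, and some remain there as resident memory cells marked by Cd69, Itgae and Cxcr6. In the kidney they are found at low number in health and in larger number in inflammatory disease.

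The 77 I-PpoI members made up 1.88% of 4091 kept barcodes (95% Clopper-Pearson interval 1.49 to 2.35), against 5 of 3217 in the wild-type library (0.155%, 0.0505 to 0.362). The ratio of the shares was 12.1 (exact conditional interval 4.97 to 38.3). These and all later intervals cover counting error only, not differences between mice, suspensions or the barcodes of a library. Intervals of summed UMIs count each UMI as independent, so they are too narrow where a few barcodes hold most UMIs. Among T barcodes (the same T, C1q and Cd79a conditions with no condition on CD8), CD8 T cells were 77 of 270 in the I-PpoI library (28.5%, 23.2 to 34.3) and 5 of 70 in the wild-type library (7.14%, 2.36 to 15.9), a ratio of 3.99 (1.64 to 12.6). Among barcodes with a UMI of Ptprc, the pan-leukocyte gene that encodes CD45, the shares were 69 of 1955 (3.53%) and 5 of 308 (1.62%), and the interval of their ratio of 2.17 included 1 (0.888 to 6.91). Other T barcodes were also a larger share of the I-PpoI library. CD4 T barcodes, which carried Cd4 and no CD8 gene, numbered 49 and 10 (ratio of shares 3.85, 1.93 to 8.53), and T barcodes with neither co-receptor gene numbered 144 and 55 (2.06, 1.50 to 2.86).

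**Figure D1:**
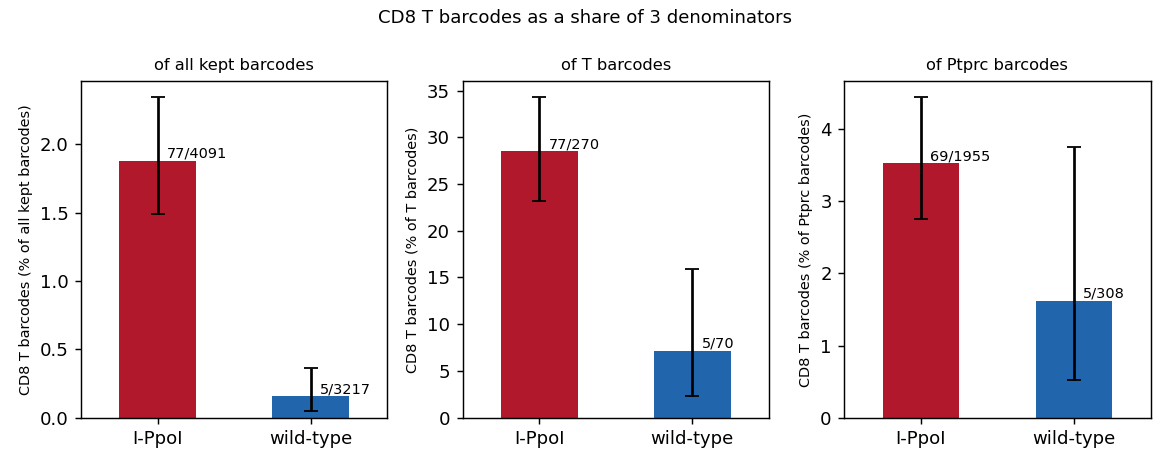
CD8 T barcodes as a percentage (vertical axes, starting at 0) of kept barcodes, T barcodes and Ptprc barcodes, with the I-PpoI library left of the wild-type library in each panel and 95% Clopper-Pearson intervals as bars. The share was 1.88% against 0.155% of kept barcodes and 28.5% against 7.14% of T barcodes, with intervals that do not overlap, and 3.53% against 1.62% of Ptprc barcodes, with intervals that do.

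The members were chosen by measured values, the UMIs of the named T, CD8, C1q and B cell genes, and these are given here as a description. Of the 77 I-PpoI members, 49 carried both Cd8a and Cd8b1, 10 carried Cd8a alone and 18 carried Cd8b1 alone. All 4 series markers were present: Cd8a had 173 UMIs in 59 of the 77, Cd8b1 214 UMIs in 67, Cd3e 151 UMIs in 61 and Trac 180 UMIs in 63. In the 5 wild-type members, Cd8a had 11 UMIs in 4, Cd8b1 15 UMIs in 5, Cd3e 15 UMIs in 5 and Trac 13 UMIs in 5. The 18 genes of a wider T cell identity list (Trbc1 and Trbc2, Cd247, Lck, Zap70, Lat and others) were all detected in both libraries. At the edge of the rule, 13 I-PpoI members rested on 1 CD8 UMI and 2 on 1 T gene UMI, and 63 held at least 2 of each, as did 5 of the 5 wild-type members. Just outside it, 6 I-PpoI barcodes were kept out by 2 or more C1q UMIs, 3 of them with exactly 2, and 4 barcodes in each library had a CD8 gene but no T gene. The C1q condition admitted 9 I-PpoI members with 1 C1q UMI. Cd4 was detected in 3 I-PpoI members and in none of the wild-type members.

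Depth set how much could be read from each barcode. I-PpoI members held 378860 UMIs in all, with 978, 3288 and 51600 as the lowest, median and highest per barcode. The 5 wild-type members held 6581, 5269, 3547, 2749 and 2613 UMIs, 20759 in all, so that a gene with 20 UMIs over both libraries was expected to have 1.04 of them in the wild-type members. Kept barcodes as a whole had a median of 6656 UMIs in the I-PpoI library and 3483 in the wild-type library, and the median mitochondrial share was 3.33% and 14.5%. Of all barcodes, 6 occurred in both libraries, and 0 of the members were among them. Scores of Scrublet, a doublet caller, put 2 I-PpoI members and 0 wild-type members among the top 4% of their library.

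**Figure D2:**
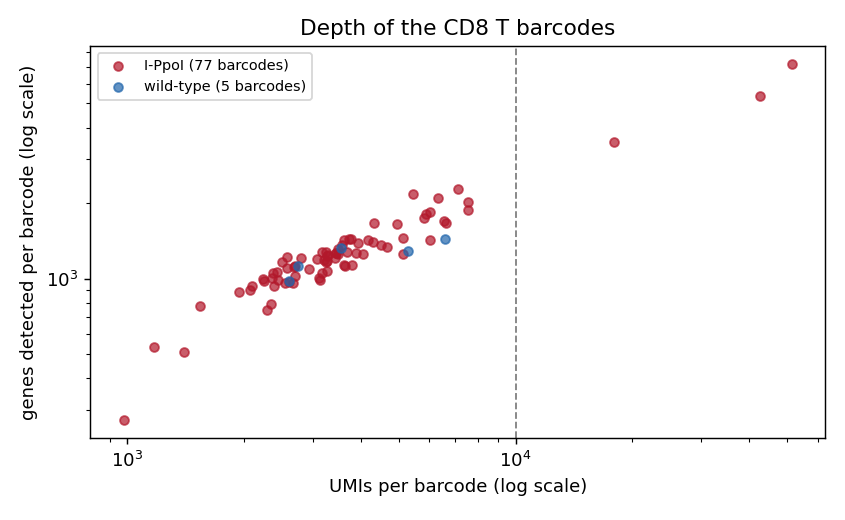
UMIs per CD8 T barcode (horizontal axis, log scale) against genes detected per barcode (vertical axis, log scale). There are 77 barcodes in the I-PpoI library and 5 in the wild-type library, and a dashed line marks 10000 UMIs. The 3 deepest I-PpoI barcodes, at 51600, 42638 and 17911 UMIs, lie to the right of the line. The next is at 7560, and the wild-type barcodes lie between 2613 and 6581.

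A few deep barcodes carried much of the RNA. The 3 I-PpoI members over 10000 UMIs held 112149 UMIs, 29.6% of the I-PpoI total, and the other 74 held 266711. The deepest barcode carried 3783 of the 3844 UMIs of Spp1 (osteopontin), all 252 of Kap (a kidney androgen-regulated gene of proximal tubule), 376 of the 428 of Apoe and 54 of the 80 of Cd74, beside 23 UMIs of Ccl5, 3 of Cd8a and 1 of Cd8b1. The next 2 carried cell cycle genes. They held 29 of the 32 UMIs of Mki67, 36 of the 38 of Top2a, 31 of the 31 of Birc5 and 34 of the 34 of Pclaf, and the deeper of them also had 15 UMIs of Cd8a, 15 of Cd8b1 and 69 of Ccl5. None of the 3 was among the top 4% of Scrublet scores. Values without these 3 barcodes, a setting chosen after seeing the data, are given below for the main lists and for several genes.

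Of the cytotoxic effector genes, Ccl5 and Nkg7 were found in the most I-PpoI members. Ccl5, a chemokine that attracts T cells and monocytes, had 2662 UMIs in 74 of 77 I-PpoI members, with 0, 27 and 159 as the lowest, median and highest per barcode. In the wild-type members it had 0, 57, 42, 20 and 21 UMIs, from the deepest barcode to the shallowest. As CPM, counts scaled to the total of the summed UMIs, the levels were 7026 and 6744, a ratio of 1.04 (0.879 to 1.24), and 1.42 without the 3 deep barcodes. Nkg7, a protein of cytotoxic granules, had 434 UMIs in 72 of 77 I-PpoI members (at most 45 in 1 barcode) and 2, 3, 4, 3 and 2 UMIs in the wild-type members, a ratio of 1.70 (1.00 to 3.13). The per-barcode values of both genes overlapped between the libraries, and 71 of 77 I-PpoI members and 4 of 5 wild-type members carried both RNAs. As a measure of free RNA, Ccl5 was found in 2.85% of 1757 macrophage barcodes and 0.216% of 464 endothelial barcodes of the I-PpoI library, and Nkg7 in 0.0569% and 0.216%. The CD8 T cells were shallower, with a median of 3288 UMIs against 7892 in macrophage and 6161 in endothelial barcodes.

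Granzyme RNA was present in about as many CD8 T cells as lacked it. At least 1 UMI of Gzma, Gzmb or Gzmk occurred in 41 of 77 I-PpoI members (53.2%, 41.5 to 64.7) and in 2 of 5 wild-type members. The 3 genes encode serine proteases of the cytotoxic granules, and they were unevenly spread over barcodes. Gzmk had 55 UMIs in 30 I-PpoI members, Gzmb 53 UMIs in 18, and Gzma 61 UMIs in 9, of which 28 lay in 1 barcode. Of the 41 barcodes, 27 carried exactly 1 of the 3 genes, 12 carried 2 and 2 carried all. Gzma lay mostly with Gzmb (6 of the 9 Gzma barcodes), and Gzmb and Gzmk shared 8 barcodes. The wild-type members had 0 UMIs of Gzma, 1 of Gzmb and 2 of Gzmk, so ratios were poorly bounded. They were 1.11 for Gzma against the floor of 3 UMIs, 2.90 (0.499 to 117) for Gzmb and 1.51 (0.398 to 12.7) for Gzmk. None of the 3 was detected in macrophage or endothelial barcodes of the I-PpoI library.

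Other effector genes were found in smaller numbers of barcodes. Ctsw, a cysteine protease of cytotoxic lymphocytes, had 135 UMIs in 54 of 77 I-PpoI members, against 2 UMIs in 2 of 5 wild-type members (3.70, 1.00 to 30.9). Prf1, which encodes perforin, had 19 UMIs in 15 I-PpoI members and none in the wild-type members, a difference that was not detectable at this depth. Ifng, the gene of interferon-gamma, had 64 UMIs in 24 I-PpoI members (at most 18 in 1 barcode) and 1 UMI in 1 wild-type member (3.51, 0.607 to 141). Fasl, a death receptor ligand, had 26 UMIs in 21 I-PpoI members and 2 UMIs in 1 wild-type member. Srgn, the proteoglycan core of the granules, had 289 UMIs in 71 and 5 UMIs in 3 (3.17, 1.34 to 9.83, and 4.08 without the deep barcodes), but it was also present in 88.1% of macrophage and 75.4% of endothelial barcodes.

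Over the whole cytotoxic list of 15 genes, the summed level was 10149 CPM in I-PpoI members and 8093 CPM in wild-type members, a ratio of 1.25 (1.07 to 1.47), or 1.66 (1.42 to 1.95) without the 3 deep barcodes. Of its 10 members with at least 20 UMIs, 4 were at least 2-fold higher and 0 at least 2-fold lower. Over all genes with at least 20 UMIs, 312 of 2470 (12.6%) were at least 2-fold higher in I-PpoI members and 192 (7.77%) at least 2-fold lower. With 222 higher and 274 lower, this split turned when every ratio was divided by the median ratio of all genes, which lay at 0.20 on the log2 scale. A gene at 0 in the wild-type members was set against the floor of 3 UMIs. At the wild-type depth, genes near the limit of 20 UMIs could therefore be counted as lower but not as higher. The split, and the counts of higher and lower genes in each list, are thus partly set by the rule. With all I-PpoI members kept, the direction of the summed cytotoxic list rested on 1 wild-type barcode. Leaving out the wild-type members in turn then gave ratios of 0.872 to 1.51. The value of 0.872 came from leaving out the deepest, which held 3 of the 168 list UMIs. These ratios were not computed without the 3 deep I-PpoI barcodes.

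**Figure D3:**
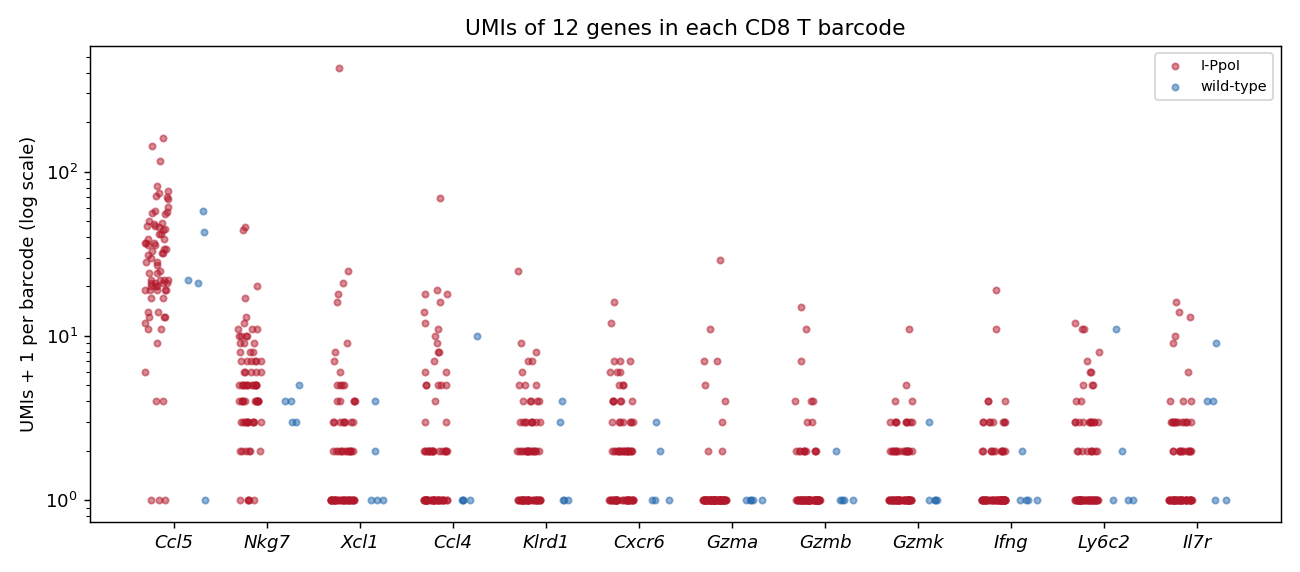
UMIs of 12 genes in each CD8 T barcode (vertical axis, UMIs + 1, log scale), with I-PpoI members left of wild-type members for each gene. Ccl5 and Nkg7 were detected in 74 and 72 of 77 I-PpoI members, and the wild-type points lie within the I-PpoI range. Most Xcl1 UMIs came from 1 I-PpoI barcode.

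RNA of killer cell lectin receptors was found in many I-PpoI members. This family includes the CD94/NKG2 heterodimers (Klrd1 with Klrc1 or Klrc2) that bind the MHC class I molecule Qa-1, and the stress-ligand receptor NKG2D (Klrk1). The 5 genes Klre1, Klrd1, Klrk1, Klrc2 and Klrc1 lie close together on chromosome 6 of mm10, from 129577905 to 129678973. Klrd1 had 118 UMIs in 40 of 77 I-PpoI members and 5 UMIs in 2 of 5 wild-type members (1.29, 0.539 to 4.06). Klrk1 had 55 UMIs in 25 I-PpoI members and 1 UMI in 1 wild-type member, and Klrc1 had 44 UMIs in 23 and 1 UMI in 1. Klrc2 had 15 UMIs in 11 I-PpoI members and none in the wild-type members. The receptors were often read in the same barcodes, with Klrd1 beside Klrc1 in 17 of the 23 Klrc1 barcodes and beside Klrk1 in 20 of the 25 Klrk1 barcodes. Any of Klrd1, Klrk1, Klrc1 and Klrc2 was detected in 48 of 77 I-PpoI members (62.3%) and 2 of 5 wild-type members. Cd160, an immunoglobulin-family receptor for HVEM on cytotoxic lymphocytes, had 40 UMIs in 26 I-PpoI members and none in the wild-type members. For Klrc2 and Cd160 a difference between the libraries was not detectable at this depth.

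Natural killer (NK) cells share several of these genes. Of 12 genes of an NK and innate lymphoid list, 4 were at 0 in the I-PpoI members, among them Ncr1, the receptor NKp46 that defines NK cells, and 8 were at 0 in the wild-type members. Tyrobp had 4 UMIs in 4 I-PpoI members, Fcer1g 6 UMIs in 3 and Klrb1c (NK1.1) 4 UMIs in 2. The summed list ranged from 0 to 66370 CPM per barcode in I-PpoI members, with a median of 426, and from 0 to 1914 in wild-type members, with a median of 282, and most of it was Xcl1.

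Xcl1, the chemokine that attracts cross-presenting dendritic cells bearing XCR1, had 592 UMIs in 39 of 77 I-PpoI members. Of these, 430 lay in 1 barcode. The wild-type members had 0, 0, 0, 1 and 3 UMIs, and the CPM ratio was 8.11 (3.15 to 29.9). Without the 1 barcode the I-PpoI members had 162 UMIs in 38 barcodes, and the ratio of 2.26 had an interval that included 1 (0.865 to 8.39). Xcl1 and killer lectin receptors were found together in 25 I-PpoI members, Xcl1 alone in 14, a lectin receptor alone in 23 and neither in 15. In the wild-type members these numbers were 0, 2, 2 and 1.

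The barcode with the most Xcl1 was also the single source of Ccl1, a chemokine of activated T cells that binds CCR8. It held 6524 UMIs, of which 2.22% were mitochondrial, 363 were Ccl1 (5.56%) and 430 Xcl1 (6.59%), so that 12.2% of its RNA was these 2 chemokines. Ccl1 was at 0 in the other 76 I-PpoI members and in the 5 wild-type members. The same barcode had 68 UMIs of Ccl4, 45 of Nkg7, 10 of Ifng, 9 of Tnfrsf9 (4-1BB, a receptor induced on activation; 6 UMIs in all other I-PpoI members), 8 of Crtam and 7 of Cd160. It was 1 of the 2 members among the top 4% of Scrublet scores. Ccl4, an inflammatory chemokine, had 260 UMIs in 40 I-PpoI members and 9 UMIs in 1 wild-type member (1.58, 0.821 to 3.50), and was also found in 52.5% of macrophage barcodes. Over the list of 16 cytokine and chemokine genes, 2 of 5 members with at least 20 UMIs were at least 2-fold higher and 0 lower, beside 12.6% and 7.77% of all genes.

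Genes of tissue-resident T cells were detected in part of the class. Cxcr6, a receptor for CXCL16 on resident and effector T cells, had 122 UMIs in 43 of 77 I-PpoI members and 3 UMIs in 2 of 5 wild-type members (2.23, 0.745 to 10.9). Cd69, which keeps T cells in tissue by opposing S1PR1, had 74 UMIs in 37 and 1 UMI in 1 (4.06, 0.706 to 162). Itgae, the CD103 integrin chain that binds E-cadherin, had 19 UMIs in 14 I-PpoI members and none in wild-type members. This difference was not detectable at this depth. Of those 14 I-PpoI barcodes, 12 also carried Cxcr6 and 11 carried Xcl1. Runx3, the transcription factor that silences Cd4 and drives CD8 and resident programmes, had 116 UMIs in 54 and 3 UMIs in 3 (2.12, 0.707 to 10.4). Rgs1 had 284 UMIs in 56 and 21 UMIs in 4 (0.741, 0.476 to 1.22). Of the 10 resident-list members with at least 20 UMIs, 4 were at least 2-fold higher and 1 lower, beside 12.6% and 7.77% of all genes. The median log2 ratio of 1.05 stood beside 0.20 over all genes. It was 0.13 with 1 UMI added to each sum in place of 0.5, a setting not computed for all genes. With genes at 0 set against the floor of 3 UMIs, the list stood at −0.89 and all genes at −1.07. The list holds Xcl1, and 441 of its 1339 I-PpoI UMIs lay in the barcode with Ccl1. The summed list had a ratio of 1.93 (1.40 to 2.74), of 2.47 without the deep barcodes, and of 1.32 without the barcode with Ccl1, where the interval included 1 (0.952 to 1.87). With all I-PpoI members it had a range of 1.43 to 4.55 over the wild-type members left out in turn. The value of 4.55 came without the barcode that held 24 of the 38 wild-type list UMIs.

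Genes of naive and central memory cells lay lower in the I-PpoI members, from few wild-type UMIs. Il7r, the interleukin-7 receptor chain, had 107 UMIs in 33 of 77 I-PpoI members and 14 UMIs in 3 of 5 wild-type members (0.419, 0.239 to 0.792). S1pr1, the receptor for exit into lymph and blood, had 26 UMIs in 18 and 7 UMIs in 2 (0.204, 0.0860 to 0.555), although it was also read in 59.3% of endothelial barcodes. Tcf7 and Lef1, transcription factors of naive and memory T cells, had 25 and 17 UMIs in I-PpoI members against 5 and 4 in wild-type members (0.274 and 0.233). Of the 7 list members with at least 20 UMIs, 0 were at least 2-fold higher and 4 lower, and the median log2 ratio was −1.16. The summed list had a ratio of 0.387 (0.297 to 0.512), or 0.477 (0.365 to 0.633) without the 3 deep I-PpoI barcodes. The deepest wild-type barcode carried 34 of the 63 wild-type list UMIs (among them 8 of Il7r, 6 of S1pr1, 5 of Dapl1, 4 of Tcf7 and 1 of Ccr7) and no Ccl5. Without it the ratio was 0.574, and over the wild-type members left out in turn it ranged from 0.336 to 0.574.

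Set side by side within barcodes, granzymes (Gzma, Gzmb, Gzmk) without naive genes occurred in 24 I-PpoI members, both in 17, naive genes without granzymes in 10 and neither in 26. In the wild-type members these numbers were 0, 2, 2 and 1. An I-PpoI barcode of 6623 UMIs also carried several naive genes, with 12 UMIs of Il7r, 4 of Tcf7, 3 of Ccr7 and 3 of Lef1, beside 12 UMIs of Ccl5, 5 of Ly6c2 and 2 of Nkg7. Ly6c2, a surface protein of memory and effector CD8 T cells, had 103 UMIs in 32 I-PpoI members and 11 UMIs in 2 wild-type members (0.513, 0.275 to 1.06). Ly6c2 was counted in the naive and central memory list above, so these UMIs are among its 445 I-PpoI and 63 wild-type UMIs.

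Checkpoint and exhaustion genes were sparse. Pdcd1 (PD-1) had 9 UMIs in 7 of 77 I-PpoI members and 1 UMI in 1 wild-type member, and Tox had 13 UMIs in 10 and 2 UMIs in 2. Ctla4 had 15 UMIs in 11 I-PpoI members, Tigit 5 UMIs in 5, Havcr2 (TIM-3) 3 UMIs in 2 and Lag3 1 UMI in 1, and each was at 0 in the wild-type members. No member of the list reached 20 UMIs, so no fold is given at this depth. None of the 11 Ctla4 barcodes carried Klrk1, Klrc1, Cd160 or Fasl. One I-PpoI member of 5449 UMIs had genes of regulatory T cells, with 2 UMIs of Foxp3, 2 of Cd4, 12 of the 22 UMIs of Ikzf2, 13 of Il7r and 1 of Cd8b1, and it held 3 UMIs of Ccl5 and none of Nkg7. Cd4 was also found in I-PpoI members of 6329 and 4316 UMIs, each with 1 UMI of Cd4, 1 of Cd8b1 and none of Foxp3. These held 1 and 2 UMIs of Ctla4, 13 and 0 of Ccl5 and none of Nkg7. All of these barcodes stay members under the rule.

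T cell receptor reads came from many segments. Among the I-PpoI members, 21 barcodes carried a variable beta segment, 1 each, from 13 segments, and the most common, Trbv12-2, was in 3 barcodes. A variable alpha segment was found in 28 barcodes, from 19 segments, with more than 1 segment in 4 of them. The reads come from the 3' end of the transcript, far from the variable region, so most barcodes gave none. Of the beta constant genes, Trbc1 had 279 UMIs in 36 I-PpoI members and 5 UMIs in 2 wild-type members (3.06, 1.29 to 9.49), whereas Trbc2 had 310 UMIs in 67 and 47 UMIs in 5 (0.361, 0.265 to 0.502, and 0.495 without the deep barcodes). These are near-identical copies, so how reads were split between them by the counting is uncertain. Trbc2 alone was found in 38 I-PpoI members, Trbc1 alone in 7 and both in 29.

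RNA of gamma receptor genes was also present. Trgv2 had 43 UMIs in 18 I-PpoI members and Tcrg-C2 had 26 UMIs in 16, with both in 12 barcodes. Both genes were at 0 in the wild-type members, a difference that was not detectable at this depth. They lie on chromosome 13 (mm10), Trgv2 at chr13:19336573-19337167 and Tcrg-C2 at chr13:19304649-19307551. Trdc, the delta constant gene that defines gamma-delta T cells, had 3 UMIs in 1 I-PpoI member, and Trdv4, Tcrg-V6 and Il17a were at 0. Of the 12 genes of the gamma-delta list, 7 were at 0 in I-PpoI members and 12 in wild-type members, and the list ranged from 0 to 3136 CPM per I-PpoI barcode, with a median of 0.

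CD8 T cells were next set against CD4 T barcodes within the I-PpoI library alone, where 77 barcodes of 3288 UMIs (median) faced 49 of 2779. By CPM, 308 of 3660 genes with at least 20 UMIs (8.42%) were at least 2-fold higher in CD8 T cells and 383 (10.5%) at least 2-fold lower. The ranking by the interval bound nearest to 1 was led by genes of single deep barcodes. Kap, C3, Cp, Spink1, Slc13a1 and Gpc3 came from the deepest CD8 T barcode, Ccl1 from the barcode described above, and Ccl4 was the remaining gene of the first 8 higher ones. The first 8 lower ones, among them the genes Mgp, Igfbp5, Col1a1, Ctgf, Cald1, Thbs1 and Col1a2, came almost wholly from a CD4 T barcode of 31684 UMIs, which held 2041 of the 2046 UMIs of Mgp. A ranking by the share of barcodes with a UMI, chosen after seeing the data, gives every barcode the same weight. By that measure 492 of the 5015 genes seen in at least 10 barcodes (9.81%) had a share at least 2-fold higher in CD8 T cells and 263 (5.24%) at least 2-fold lower.

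By share of barcodes, killer lectin receptors and Cd160 were among the first genes. Klrd1 was found in 40 of 77 CD8 T cells (51.9%) and 1 of 49 CD4 T barcodes (2.04%), and in 27.3% and 0.931% after every barcode was thinned to 1000 UMIs. It was found in 7 of 144 T barcodes with neither co-receptor gene and in 0.341% of macrophage barcodes. Cd160 was found in 26 CD8 T cells, Klrk1 in 25, Klrc1 in 23, Trgv2 in 18, Tcrg-C2 in 16, Prf1 in 15 and Crtam in 14, and each was found in 0 of 49 CD4 T barcodes. By the floor of 3 counts this allows a share with a UMI of up to 6.12%, and by the Clopper-Pearson interval of up to 7.25%, and neither limits the share of cells that express a gene. Crtam encodes a receptor of activated CD8 and NK cells. Of the 144 I-PpoI T barcodes with neither co-receptor gene, 14 carried Trgv2, 10 Tcrg-C2, 4 each Klrk1, Klrc1 and Prf1, and 1 each Cd160 and Crtam. In the wild-type library Cd160, Trgv2, Tcrg-C2 and Prf1 were each in 0 of 5 CD8 T cells and 1 of 10 CD4 T barcodes. Klrk1, Klrc1 and Crtam were each in 1 and 0 there. In the I-PpoI library Ly6c2 was in 32 CD8 T cells and 3 CD4 T barcodes, and Slamf7, a receptor of the SLAM family, in 18 and 1. Widely shared effector genes also differed in share: Nkg7 was in 72 of 77 CD8 T cells and 17 of 49 CD4 T barcodes, Ccl5 in 74 and 26, Ctsw in 54 and 14, and Xcl1 in 39 and 7.

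Genes found in a smaller share of CD8 T cells included those of helper and regulatory T cells. Foxp3, the transcription factor of regulatory T cells, was in 1 of 77 CD8 T cells and 12 of 49 CD4 T barcodes, and Il2ra (CD25) in 3 and 13. Tnfrsf4 (OX40), a co-stimulatory receptor, was in 7 and 28, Cd40lg, the helper ligand for B cells, in 2 and 14, and Maf in 6 and 25. Ikzf2 (Helios) was in 4 and 17, and Il7r in 33 (42.9%) and 43 (87.8%). Ctla4 and Pdcd1 were also in fewer CD8 T cells, 11 against 20 and 7 against 15. By CPM, where 8.42% of all genes were at least 2-fold higher and 10.5% lower, 5 of the 5 checkpoint genes with at least 20 UMIs were lower in CD8 T cells. For the cytotoxic list 6 of 10 were higher and 0 lower, for the killer lectins 3 of 3 were higher, for cytokines and chemokines 4 of 8 were higher and 1 lower, and for cytokine receptors 0 of 11 were higher and 4 lower. All 6 tested genes of the CD8 lineage list were higher and all 9 of the CD4 and regulatory list lower, which follows in part from the way both classes were chosen. Cell cycle genes (11 of 12 higher) rested on the 2 deep CD8 T barcodes with cell cycle genes.

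**Figure D4:**
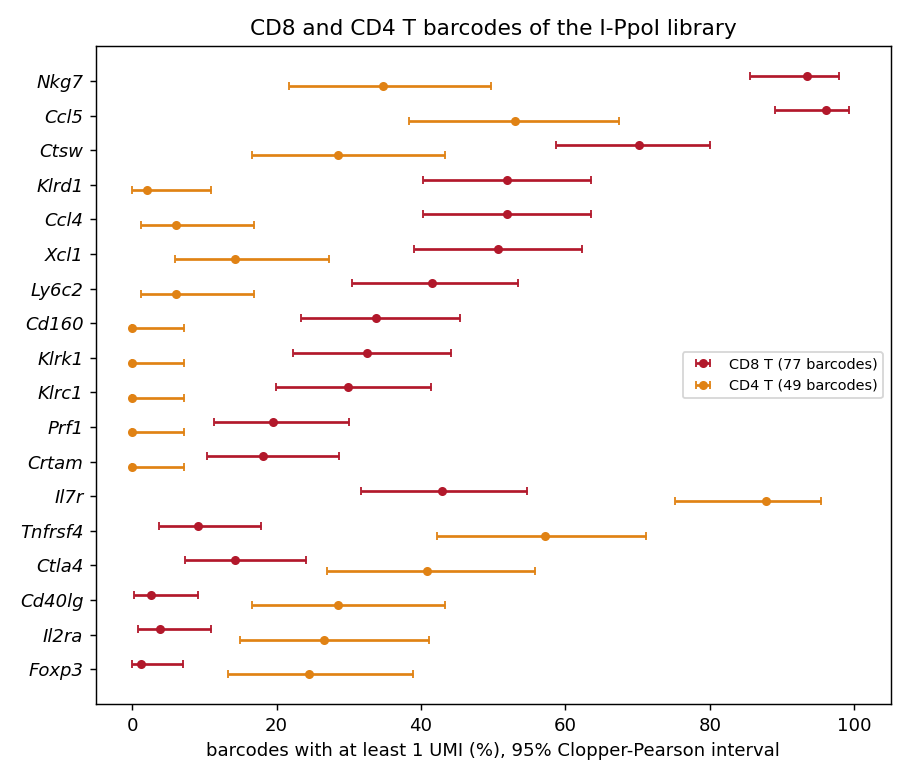
Share of CD8 T barcodes (n = 77) and CD4 T barcodes (n = 49) of the I-PpoI library with at least 1 UMI of each gene (horizontal axis, percent, with 95% Clopper-Pearson intervals). Klrd1, at 51.9% against 2.04%, shows the wide gap at the top, and Il7r, at 42.9% against 87.8%, the opposite order.

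The single genes that differed most between the libraries were ranked by the interval bound nearest to 1, among genes whose level in the class exceeded that in the rest of the library. The first 12 higher in I-PpoI members were Ccl1, Xcl1, Rbm3, Cp, Ndrg1, Hint1, Dusp2, Slc25a5, Spink1, Eif5a, Atp5g2 and Psmb3. In 5 of these 12, at least 50% of the I-PpoI UMIs came from 1 barcode. For Cp (136 of 138 UMIs), Ndrg1 (131 of 133) and Spink1 (174 of 174) that barcode was the deepest one. The other 7 genes were found in 43 to 74 of the 77 I-PpoI members. Dusp2 encodes a nuclear phosphatase of activated lymphocytes that acts on MAP kinases. It had 124 UMIs in 46 of 77 I-PpoI members, at most 10 in 1 barcode, and none in the 5 wild-type members. Against the floor of 3 UMIs its ratio was 2.27, and 2.98 without the deep barcodes, where the exact interval started at 2.39. Rbm3, an RNA-binding protein induced by cold, had 461 UMIs in 74 I-PpoI members and 5 UMIs in 3 wild-type members (5.05, 2.15 to 15.6), and 4.31 (1.83 to 13.4) without the deep barcodes.

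Without the 3 deep barcodes the first 12 higher genes were Ccl1, Xcl1, Dusp2, Rbm3, Srgn, Ifngr1, Vim, Arpc5, Atp5g2, Nfkbia, Eif5a and Trbc1. Ifngr1, a chain of the interferon-gamma receptor, had 178 UMIs in 58 of all 77 I-PpoI members and 2 UMIs in 2 wild-type members (4.88, 1.33 to 40.6). Nfkbia, the NF-kappaB inhibitor induced by NF-kappaB itself, had 191 UMIs in 36 and 2 UMIs in 2 (5.23, 1.43 to 43.5). Both were also read in macrophage barcodes, 84.7% and 68.7% of them. Ratios against 2 to 5 wild-type UMIs carry wide intervals.

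The first 12 lower genes were Trbc2, Gmfg, S1pr1, Gm42418, Ap3s1, Dnajb1, Epsti1, Arhgap45, Hist1h1c, Stk4, Klf13 and Tecpr1. Gmfg, an actin-regulating protein of blood cells, had 92 UMIs in 44 of 77 I-PpoI members and 17 UMIs in 5 of 5 wild-type members (0.297, 0.176 to 0.531), and 0.320 without the deep barcodes. Epsti1, an interferon-inducible gene, had 65 UMIs in 40 and 11 UMIs in 4 (0.324, 0.170 to 0.680), and Hist1h1c, a linker histone, 42 UMIs in 22 and 8 UMIs in 5 (0.288, 0.133 to 0.709). Stk4 (MST1), a kinase that T cells need for survival and trafficking, had 27 UMIs in 21 and 6 UMIs in 2 (0.247, 0.100 to 0.730), and Klf13, a transcription factor that acts on the Ccl5 promoter, 52 UMIs in 34 and 9 UMIs in 4 (0.317, 0.155 to 0.731). Genes whose level was higher outside the class were set apart in this ranking, which has no 2-fold limit. They were 608 of the genes with a ratio over 1 and 80 of those with a ratio under 1. The first 5 higher were Spp1, Apoe, Neat1, Tmem176b and Igfbp7, each with most UMIs in the deepest barcode, and the first 5 lower were Lars2, Ptms, Atp5j2, Atp5h and Ndufb10.

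Among the remaining gene lists, mitochondrially encoded RNA showed the lowest median log2 ratio. Of its 12 genes, 0 were at least 2-fold higher and 7 at least 2-fold lower, the median log2 ratio was −1.17, and the summed ratio was 0.504 (0.479 to 0.532), with 0.457 to 0.563 over the wild-type members left out in turn. The wild-type members had 6.97, 9.81, 3.69, 5.27 and 11.8% mitochondrial UMIs, and the I-PpoI members 3.15% at the median. Kept barcodes of all kinds showed the same order, 3.33% against 14.5%, and its part in the result was not tested. Nuclear genes of oxidative phosphorylation had a median of 0.52, with 3 of 18 higher and 0 lower, and a summed ratio of 1.63 (1.34 to 2.02), or 1.28 without the deep barcodes. Ribosomal protein genes, with 0 of 18 past 2-fold either way, had a median of −0.17.

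Immediate early genes of T cell activation had a summed ratio of 1.85 (1.35 to 2.61), or 2.30 without the deep barcodes, with 3 of 10 higher, 0 lower and a median log2 ratio of 0.45. Jun, a subunit of AP-1, had 68 UMIs in 29 I-PpoI members and none in the wild-type members. Against the floor of 3 UMIs it was not counted as higher, so these counts can miss genes at 0 in the wild-type members. Junb had 303 UMIs in 52 I-PpoI members and 17 UMIs in 3 wild-type members (0.977, 0.600 to 1.70). Interferon response genes had 2 of 8 higher and 1 lower (median 0.33), with Ly6e at 253 UMIs in 66 and 6 UMIs in 4 (2.31, 1.05 to 6.36). MHC class I genes had 2 of 14 higher and a median of −0.0013, with H2-D1 at 1.75 (1.10 to 2.97) and B2m at 0.692 (0.509 to 0.964). Against 12.6% higher and 7.77% lower among all genes, heat shock genes (0 higher, 1 lower of 9, median 0.17), p53 targets (0 and 0 of 4, 0.42), cell survival genes (1 and 0 of 9, 0.14), T cell receptor signalling (1 and 1 of 13, 0.09) and T cell identity genes (1 and 2 of 17, −0.47) had 0 to 2 genes past 2-fold in each direction, and the medians of several of these lists changed sign with the processing. Cytokine receptors had 3 higher and 2 lower of 8 (0.16), and chemokine receptors 1 and 2 of 6 (−1.13). Cell cycle genes had 4 of 11 higher, 0 lower and a median of 1.48, which became 0.02 without the deep barcodes. The remaining lists of T cell subtypes gave medians of 0.76 for killer lectins (2 of 3 higher, 0 lower), 1.02 for NK genes (2 of 2 higher), −0.27 for CD8 lineage (2 of 6 higher, 0 lower, with the choosing genes Cd8a and Cd8b1 among its members), 0.36 for CD4 and regulatory lineage (0 of 3 past 2-fold), 0.20 for checkpoint genes, 0.59 for cytokines and 0.84 for the cytotoxic list.

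**Figure D5:**
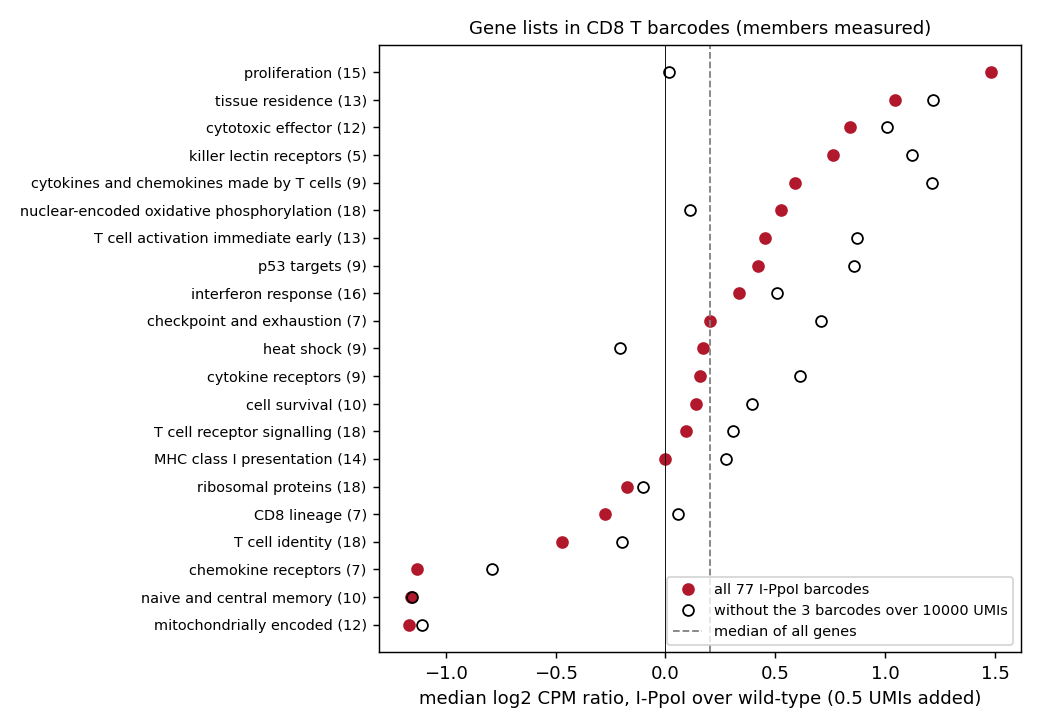
Median log2 CPM ratio, I-PpoI over wild-type, of gene lists in CD8 T barcodes (horizontal axis), over members with at least 10 UMIs and with 0.5 UMIs added to each sum. Filled points are for all I-PpoI barcodes and open points for those without the deep ones, and the dashed line is the median of all genes. The lists of other cells, NK, gamma-delta and CD4 and regulatory genes are not shown. Tissue residence stands at 1.05, naive and central memory at −1.16 and mitochondrially encoded genes at −1.17, against 0.20 for all genes. That 0.20 is the value of a gene with 10 I-PpoI UMIs and none in wild-type members. With 1 UMI added tissue residence stands at 0.13, a setting not computed for all genes.

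RNA of other kidney and blood cells was present in both libraries, in different kinds. Of 12 macrophage markers, 7 were at 0 in the I-PpoI members (among them Csf1r, Fcgr3, Adgre1, Trem2, Cd68 and Fcgr1) and 12 at 0 in the wild-type members. Their sum ranged from 0 to 8333 CPM per I-PpoI barcode, with a median of 258 and a UMI in 48 of 77. It held 545 UMIs with the 3 deep barcodes and 100 without them. The wild-type members had none. Proximal tubule markers went the other way outside the deep barcodes. The 5 wild-type members held 2, 3, 3, 3 and 9 UMIs of that list (963 CPM), and the 74 I-PpoI members without the deep ones held 9 UMIs in all (33.7 CPM). The part of this RNA in the differences between the libraries was not tested. Lists of endothelial, fibroblast and mural, B and plasma, neutrophil, dendritic and erythroid cells held at most 30 UMIs each in the I-PpoI members and at most 3 in the wild-type members. The list of distal and injured epithelium held 3918 and 2, nearly all of it Spp1.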

How the data were processed

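The authors deposited whole-number UMI counts per gene and barcode, made with Cell Ranger on mm10; the labels name version 3.1 and the file headers version 6.0.2. Barcodes with at least 200 genes and at most 50% mitochondrial UMIs were kept. Free RNA was not removed, and doublets were scored with Scrublet (scanpy 1.11.5) without removal. The UMIs of each class in a library were added up and scaled to CPM. Intervals are exact and were computed with scipy 1.17.1 at 95%. They were tested on simulated Poisson counts without barcodes, which cannot show how they hold for UMIs clustered by barcode. A gene at 0 in a group was set against a floor of 3 UMIs over that group. List medians used members with at least 10 UMIs, with 0.5 UMIs added. With 1 library per group no test was possible. Named genes were the first 12 each way (5 outside the class, 8 against CD4 T barcodes) by the interval bound nearest to 1, among genes with at least 20 UMIs, leaving out mitochondrial, ribosomal, haemoglobin and choosing genes, plus up to 4 members of each list by UMIs; other genes were named after their values were seen. The members and the 33 gene lists were chosen with earlier results of these data known. Coordinates are from GENCODE release 21 (mm10), which matched 31011 of 31053 gene identifiers. Macrophage barcodes had at least 5 C1q UMIs, and endothelial ones at least 3 UMIs of Emcn, Kdr, Plvap and Egfl7; neither had T genes. Some named-gene results are not reported here.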

Additional observations from a re-analysis of the deposited data

Results flagged for a closer look

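For 6 genes the order of the libraries in CD8 T cells was opposite to that in CD4 T barcodes; the difference between the classes was not tested, and the wild-type values rest on 5 CD8 T and 10 CD4 T barcodes. Nkg7 had a CPM ratio, I-PpoI over wild-type, of 1.70 (1.00 to 3.13) in CD8 T cells and 0.198 (0.123 to 0.318) in CD4 T barcodes. Ctsw had 3.70 (1.00 to 30.9) and 0.397 (0.201 to 0.810). Xcl1 had 8.11 (3.15 to 29.9) and 0.309 (0.208 to 0.462), and the CD8 value rests on 1 barcode. Il7r had 0.419 (0.239 to 0.792) in CD8 T cells and 47.9 (8.49 to 1900) in CD4 T barcodes, where it had 201 UMIs in the I-PpoI library and 1 in the wild-type library. Hspa1b, a heat shock protein, had 1.28 against the floor of 3 UMIs in CD8 T cells and 0.501 (0.284 to 0.916) in CD4 T barcodes. Rps27, a ribosomal protein gene, had 0.713 (0.631 to 0.809) and 1.17 (1.04 to 1.33).

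In the I-PpoI library 17 of 49 CD4 T barcodes carried Nkg7, 26 Ccl5, 7 Xcl1, 13 Cxcr6, 14 Ctsw and 43 Il7r. Of the 10 wild-type CD4 T barcodes, 9 carried Nkg7, 8 Ccl5, 7 Xcl1, 7 Cxcr6, 6 Ctsw and 1 Il7r.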

How the results depend on the processing

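The ratio of shares of kept barcodes stayed between 8.96 and 14.9 under the other choices of barcodes and was 2.17 on Ptprc barcodes; on T barcodes it stayed between 2.99 and 3.95. Of 311 medians of gene lists under the alternatives, 295 stayed within the interval of the reported median over list members, which is wide for short lists; 38 medians, from 13 of 25 lists, had the opposite sign, and 40 lay over 0.5 away. Of the values of named genes, 332 stayed within their interval, 28 left it and 14 turned. The cause was not tested. Some values of Ccl1, Cp, Ndrg1 and Spink1 rest on few or no UMIs, as given below.

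Genes at least 2-fold higher numbered 191 without barcodes holding markers of other cells, 26 after thinning and 179 at a mean CPM of at least 100. Lower ones numbered 78, 42 after thinning, 113 without barcodes over 10000 UMIs and 1389 with no filter. The share of higher genes among those past 2-fold was 61.9% as reported and 71.0% without such barcodes, 70.9% without deep ones, 38.2% thinned, 44.8% divided by the median ratio and 18.3% with no filter. Against CD4 T barcodes, 132 genes were higher and 169 lower without barcodes holding markers of other cells, and 133 were higher without deep ones.

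Without barcodes holding markers of other cells, the medians were 0.67 for chemokine receptors, 0.75 for proliferation and 1.15 for macrophage markers, and the log2 ratios of Cp, Ndrg1, Spink1 and Igfbp7 were −3.89, −2.31, −3.89 and −1.57. Without deep barcodes the medians were 1.12 for killer lectins and 0.017 for proliferation, and Cp, Ndrg1 and Spink1 stood at −1.36, −1.36 and −5.27. The deepest barcode held 136 of the 138 I-PpoI UMIs of Cp, 131 of 133 of Ndrg1 and 174 of 174 of Spink1. Without that barcode, the negative values of these genes rest on few or no UMIs and on the amount added to each sum. They do not show lower levels. By mean CPM per barcode the medians were 1.11 for killer lectins, −0.37 for proliferation, −0.0065 for ribosomal proteins and −2.78 for proximal tubule, and Spink1 stood at −1.16. After thinning the medians were 1.28 for killer lectins, 0.93 for chemokine receptors and −1.36 for mitochondrially encoded genes, and Cp, Ndrg1, Spink1, Tmem176b and Stk4 stood at −0.76, −1.12, −1.60, −3.93 and 0.32. With 1 UMI added the medians were 0.12 for killer lectins, 0.13 for tissue residence, −0.60 for interferon response, 0.049 for cytokines and 0.70 for proliferation. Divided by the median ratio, mitochondrially encoded genes stood at −1.37. Without the top 4% of Scrublet scores, Ccl1 stood at −4.14. It then had 0 UMIs in the members of both libraries. This value reflects only the amount added to each sum and the depths, and shows no decrease.

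Depth limits the wild-type side, with 20759 UMIs in 5 barcodes. No paired analysis was possible because each group has 1 library.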
